A study of Mus musculus with 2 samples.

Results

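The Wnt ligand genes Wnt4, Wnt5a, Wnt7a and Wnt11 and the antagonist genes Sfrp1, Sfrp2, Sfrp4, Frzb, Dkk3 and Wif1 were followed across the cell classes of mouse uterus. They are 10 of the 32285 genes counted in the files, were named by symbol with earlier results of these data known, and were all matched. The data are 2 droplet single-cell RNA libraries of whole uterus from female C57BL/6J mice aged 6 months, each made from a pool of 3 mice. The control group is labelled Prickle1 f/f and the cKO group Prickle1 f/f MiC, so both carry the f/f Prickle1 alleles, written in the usual way for alleles flanked by loxP sites. What MiC abbreviates and which promoter it uses are not given, and the genotype entry reads wild-type for both libraries. With each group pooled into 1 library no test is possible: every interval below is a 95% interval for counting error alone, and differences between mice or preparations cannot be told apart from differences between the groups.

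Wnt proteins are secreted ligands that bind Frizzled receptors with a co-receptor. With Lrp5 or Lrp6 they stabilise beta-catenin, and with Ror2, Ryk or Ptk7 they feed the planar cell polarity branch, in which Prickle1 is a core cytoplasmic component. Sfrp1, Sfrp2, Sfrp4 and Frzb (also called Sfrp3) carry a Frizzled-like domain and bind Wnts outside the cell, Wif1 binds Wnts through a domain of its own, and Dkk3 is a divergent member of the Dickkopf family whose part in Wnt signalling is less settled. In the mouse female tract Wnt7a is known as the epithelial ligand that patterns the uterus, Wnt5a as a mesenchymal ligand needed for glands, and Wnt4 as a ligand needed for the Müllerian duct and for decidualisation of the stroma.

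The 10 genes lie on 9 chromosomes of mm10 (GRCm38) in the GENCODE vM21 annotation and all are protein coding. The ligand genes are Wnt4 (chr4:137277489-137299726, plus strand), Wnt5a (chr14:28504750-28527448, plus), Wnt7a (chr6:91363981-91411363, minus) and Wnt11 (chr7:98835112-98855195, plus). The antagonist genes are Sfrp1 (chr8:23411502-23449632, plus), Sfrp2 (chr3:83766321-83774316, plus), Sfrp4 (chr13:19623104-19632994, plus), Frzb (chr2:80411970-80447625, minus), Dkk3 (chr7:112116017-112159057, minus) and Wif1 (chr10:121033960-121100650, plus). Wnt5a overlaps Gm2670, Wnt11 overlaps Gm8398 and Sfrp2 overlaps Gm26771 in that annotation, and the sources used here do not state whether the counting used strand, so UMIs of these 3 genes may include some from their neighbours.

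RefSeq promoters (GRCm38.p6) were found for 6 of the 10 genes. The 250 bases before a start site are shown for 3 members that the results below turn on: Wnt7a, found almost wholly in the epithelium, Wnt11, which differed in dendritic cell-like cells, and Sfrp2, which differed in 1 fibroblast-like cluster. Wnt11 has 2 such windows in the table, and the upstream one is printed. They are written 5′ to 3′ on the gene's strand, and capitals mark the motifs that were searched for on both strands (the GC box GGGCGG, the TATA element TATAAA and the TCF/LEF core CTTTGA), with overlapping matches running together.
Wnt7a (chr6:91411354-91411603, minus strand): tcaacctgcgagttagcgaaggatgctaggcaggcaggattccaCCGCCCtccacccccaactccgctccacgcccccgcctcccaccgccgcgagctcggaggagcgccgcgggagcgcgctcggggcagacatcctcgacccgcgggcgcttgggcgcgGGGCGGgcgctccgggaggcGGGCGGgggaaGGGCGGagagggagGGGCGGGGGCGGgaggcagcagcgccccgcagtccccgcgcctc
Wnt11 (chr7:98834862-98835111, plus strand): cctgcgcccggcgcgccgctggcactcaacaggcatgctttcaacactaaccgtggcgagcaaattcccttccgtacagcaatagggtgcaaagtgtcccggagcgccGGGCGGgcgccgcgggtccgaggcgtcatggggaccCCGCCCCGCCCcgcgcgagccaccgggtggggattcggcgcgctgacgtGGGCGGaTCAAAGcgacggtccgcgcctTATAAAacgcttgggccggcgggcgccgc
Sfrp2 (chr3:83766071-83766320, plus strand): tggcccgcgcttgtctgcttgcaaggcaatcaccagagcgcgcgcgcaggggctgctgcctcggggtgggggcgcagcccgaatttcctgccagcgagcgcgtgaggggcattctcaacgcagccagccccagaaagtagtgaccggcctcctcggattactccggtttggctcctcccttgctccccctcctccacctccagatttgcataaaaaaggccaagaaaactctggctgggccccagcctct
The Wnt7a window holds 6 GC boxes and neither other motif. The printed Wnt11 window holds 4 GC boxes, 1 TATA element and 1 TCF/LEF core, its other window (chr7:98838595-98838844) holds none of them, and the Sfrp2 window also holds none of the 3 motifs. Among all 32851 promoters of the table, 32.7% hold a GC box, 12.4% a TATA element and 13.8% a TCF/LEF core in a window of this length, so single matches are common and are given as letters only.

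The library labelled control held 45035801 UMIs (unique molecular identifiers, 1 per captured transcript) and that labelled cKO 34261441, of which 83.4% and 85.7% lay in cells. Cells were barcodes of 1000 or more UMIs and 500 or more genes with a mitochondrial share of no more than 20%, giving 3490 and 3586 with medians of 4953 and 4903 UMIs, and 6 cell barcodes occurred in both libraries. Cells fell into 20 clusters, named from marker genes as X-like, and the makeup of the libraries differed: epithelium-like cells numbered 1322 and 110, fibroblast-like cells 868 and 1378, and smooth muscle-like cells 313 and 682 (control, then cKO, the order used throughout). More than 90% of the cells of epithelium-like clusters 0 and 7 and of fibroblast-like cluster 6 belonged to a single library, and such a cluster may reflect the library more than a type of cell. The gene named in the genotype does not separate the libraries as labelled. Prickle1 had 96 and 265 UMIs over all cells, 14.9 and 24.3 CPM (UMIs per 1e6 UMIs of the class) in smooth muscle-like cells (ratio 1.63, 0.89 to 3.19) and 4.35 and 8.63 CPM in fibroblast-like cells (ratio 1.98, 1.40 to 2.86). Its level was therefore not lower in the library labelled cKO, though 3′ UMIs from outside a deleted exon would not show a deletion, and the groups are called below by their labels.

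Levels are the CPM of a class in a library. A log2 level ratio is log2 of cKO CPM + 5 over control CPM + 5, which understates the difference for low genes, and a gene was called past 2-fold when that ratio exceeded 2-fold and the gene had at least 10 CPM in 1 library. Ratios in CPM carry an exact conditional interval. The classes compared are the 5 with at least 100 cells in both libraries.

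**Figure D1:**
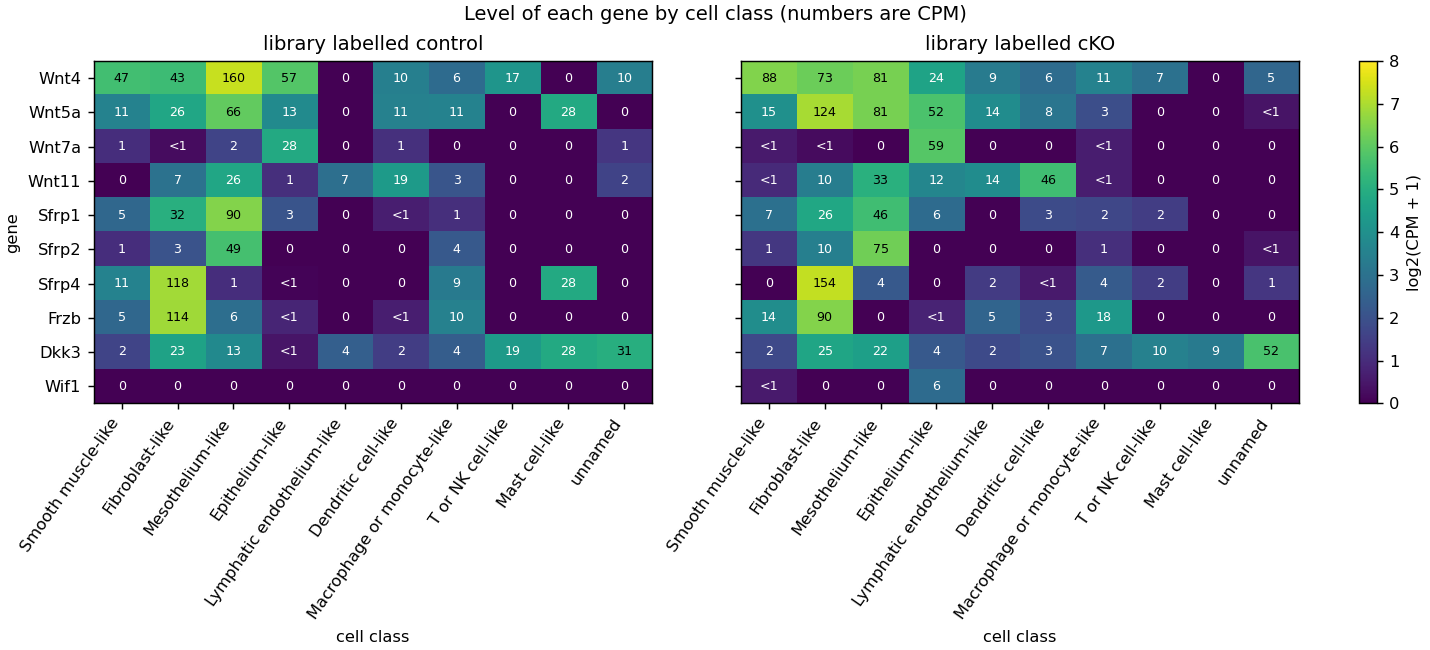
Level of each of the 10 genes (rows) in each cell class (columns) in the library labelled control (left) and the library labelled cKO (right). Colour is log2(CPM + 1) and the printed numbers are CPM; Wnt7a is at 28.0 and 58.6 CPM in epithelium-like cells and under 3 CPM in every other class, and Sfrp4 and Frzb stand highest in fibroblast-like cells in both libraries.

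The genes differed in their main source, though several shared the fibroblast-like cells. Fibroblast-like cells gave 67.4% and 88.6% of Sfrp1 UMIs and 71.3% and 67.8% of Dkk3 UMIs. Of all UMIs of Wnt7a in cells, 98.3% and 94.0% came from epithelium-like cells, and of Sfrp4 and Frzb at least 95.3% came from fibroblast-like cells in either library. Wnt4 was spread over epithelium-like, fibroblast-like, smooth muscle-like and mesothelium-like cells. These shares follow the cell numbers as well as the levels: epithelium-like cells gave 61.5% and 2.06% of Wnt4 UMIs. Taking every cell together, Wnt7a stood at 14.4 and 2.86 CPM and Wnt5a at 16.6 and 77.1 CPM, and such totals move with the mix of cells.

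Of the 2 libraries, the one labelled cKO had more Wnt4 in smooth muscle-like and less in epithelium-like cells. In smooth muscle-like cells its level was 46.9 CPM (44 UMIs in 29 cells) and 88.3 CPM (185 UMIs in 105 cells), a ratio of 1.88 (1.35 to 2.68) and a log2 level ratio of 0.85. Both smooth muscle-like clusters were higher in the library labelled cKO: the shallow cluster 11 (23.6 and 70.3 CPM) and the deeper cluster 15 (62.9 and 94.5 CPM), with ratio intervals of 1.42 to 7.01 and 1.03 to 2.24. The share of smooth muscle-like cells with a Wnt4 UMI was 9.27% and 15.4%, and 3.51% and 6.16% after every cell was thinned to 1000 UMIs. T or NK cell-like cells, which are not known to make Wnt4, gave 7.14% and 2.63%, or 1.02% and 0.658% thinned, at median depths of 3683 and 3425.5 UMIs against 1878 and 1984.5 in smooth muscle-like cells. The 7 fibroblast markers summed to 698 and 439 CPM in smooth muscle-like cells (6 and 7 of them detected), the 6 epithelium markers to 69.3 and 12.4 CPM, the 6 mesothelium markers to 253 and 331 CPM (2 detected in each library), and the 7 smooth muscle markers to 7856 and 5116 CPM. In cluster 11 the 34 cells with a Wnt4 UMI carried 241 CPM of epithelium markers against 47.2 CPM in the other 514, while in cluster 15 the 100 cells with Wnt4 carried 11.9 CPM against 17.1 CPM in the other 347. Among the marker lists of other cell types the erythroid one differed most between the libraries in this class, at 49.0 and 902 CPM, and the median mitochondrial share was 2.41% and 1.44%. Empty droplets held 28.7 and 32.2 CPM of Wnt4, above the 23.6 CPM of cluster 11 with the control label. Subtracting free RNA at 1.73% and 3.57% of UMIs, the lowest estimates among the compared classes, left the log2 level ratio of the class at 0.84. Shares that low could move the ratio little. The part of other cells' RNA in the Wnt4 difference was not tested.

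In epithelium-like cells Wnt4 stood at 56.8 CPM (1079 UMIs in 374 cells) and 23.7 CPM (32 UMIs in 15 cells), a ratio of 0.418 (0.284 to 0.593). The direction was the same in both clusters that hold at least 20 cells of each library. Cluster 8 stood at 45.7 and 29.4 CPM (ratio interval 0.354 to 1.10) and cluster 17 at 65.8 and 18.4 CPM (0.145 to 0.492), the second with only 20 cells and a median depth of 19174 and 2597.5 UMIs. The role of that depth gap was not tested. The class level of 23.7 CPM with the cKO label was below that of its empty droplets (32.2 CPM). With free RNA subtracted at the same lowest estimates the log2 level ratio was -1.15, while the estimates in this class itself were 10.4% and 7.99%. After thinning to 1000 UMIs the log2 level ratio in the class was -0.39 in place of -1.10.

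Fibroblast-like cells as a whole had more Wnt4 in the library labelled cKO, 43.3 and 73.4 CPM (ratio 1.70, 1.52 to 1.90), but the largest cluster went the other way. Cluster 5, with 460 and 708 cells, stood at 45.6 and 37.2 CPM (0.695 to 0.957). Cluster 6, with 17 and 233 cells, had 171 and 185 CPM (0.808 to 1.48) and held 54.6% of all Wnt4 UMIs of the library labelled cKO. Without cluster 6 the log2 level ratio of the class turned from 0.70 to -0.29. Mesothelium-like cells, with 81 and 28 cells, had 160 CPM (135 to 188) and 80.8 CPM (58.7 to 108). In the library labelled control the mesothelium thus stood highest, with epithelium-like, smooth muscle-like and fibroblast-like cells behind it and each neighbour among these 3 overlapping the next in its interval. In the library labelled cKO the smooth muscle-like, mesothelium-like and fibroblast-like levels overlapped and the epithelium-like level was the lowest of the 4.

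Wnt5a, the polarity-branch ligand, was the only member past 2-fold in fibroblast-like cells (1 of 6 measured there, against 2.52% of all 8185 genes and 1.64% in the higher direction). Its level was 25.7 CPM (254 UMIs in 98 cells) and 124 CPM (2079 UMIs in 291 cells), a ratio of 4.82 (4.23 to 5.51) and a log2 level ratio of 2.07. Most of these UMIs came from 1 cluster: cluster 6 held 77.4% of all Wnt5a UMIs of the library labelled cKO, at 335 CPM in its 17 control cells and 382 CPM in its 233 cKO cells (ratio interval 0.925 to 1.42). At this resolution the intervals of the libraries overlapped within the cluster, and the libraries differed in how many such cells they held. At a finer resolution of 2.0, a group of 8 and 139 cells, 146 of them from cluster 6, stood at 264 and 448 CPM for Wnt5a (1.23 to 2.42) and 57.0 and 234 CPM for Wnt4 (2.07 to 9.52), so a difference within these cells rests on 8 control cells. Without cluster 6 the log2 level ratio was 0.55 and no member was past 2-fold.

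Within the other fibroblast-like clusters the Wnt5a difference went both ways. Cluster 16 (126 and 176 cells) stood at 51.5 and 234 CPM, from 47 and 227 UMIs, with a ratio interval of 3.31 to 6.36. The shallow cluster 13 stood at 29.0 and 92.2 CPM (1.49 to 6.83), and cluster 5 at 13.4 and 8.67 CPM (0.470 to 0.892). Wnt5a was thus higher in the library labelled cKO in clusters 13 and 16 and lower in the largest cluster, as the plot by fibroblast-like cluster shows. The empty droplets of the libraries, which hold free RNA, carried 9.31 and 46.9 CPM of Wnt5a. The fibroblast-like level was above this in both libraries. Subtracting free RNA at the lowest estimates among the compared classes, which could move the ratio little, left the log2 level ratio at 2.06. Among the classes, mesothelium-like cells stood highest in Wnt5a with the control label, at 66.5 CPM (51.0 to 85.2), and fibroblast-like cells with the cKO label, where mesothelium-like cells had 80.8 CPM (58.7 to 108).

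**Figure D2:**
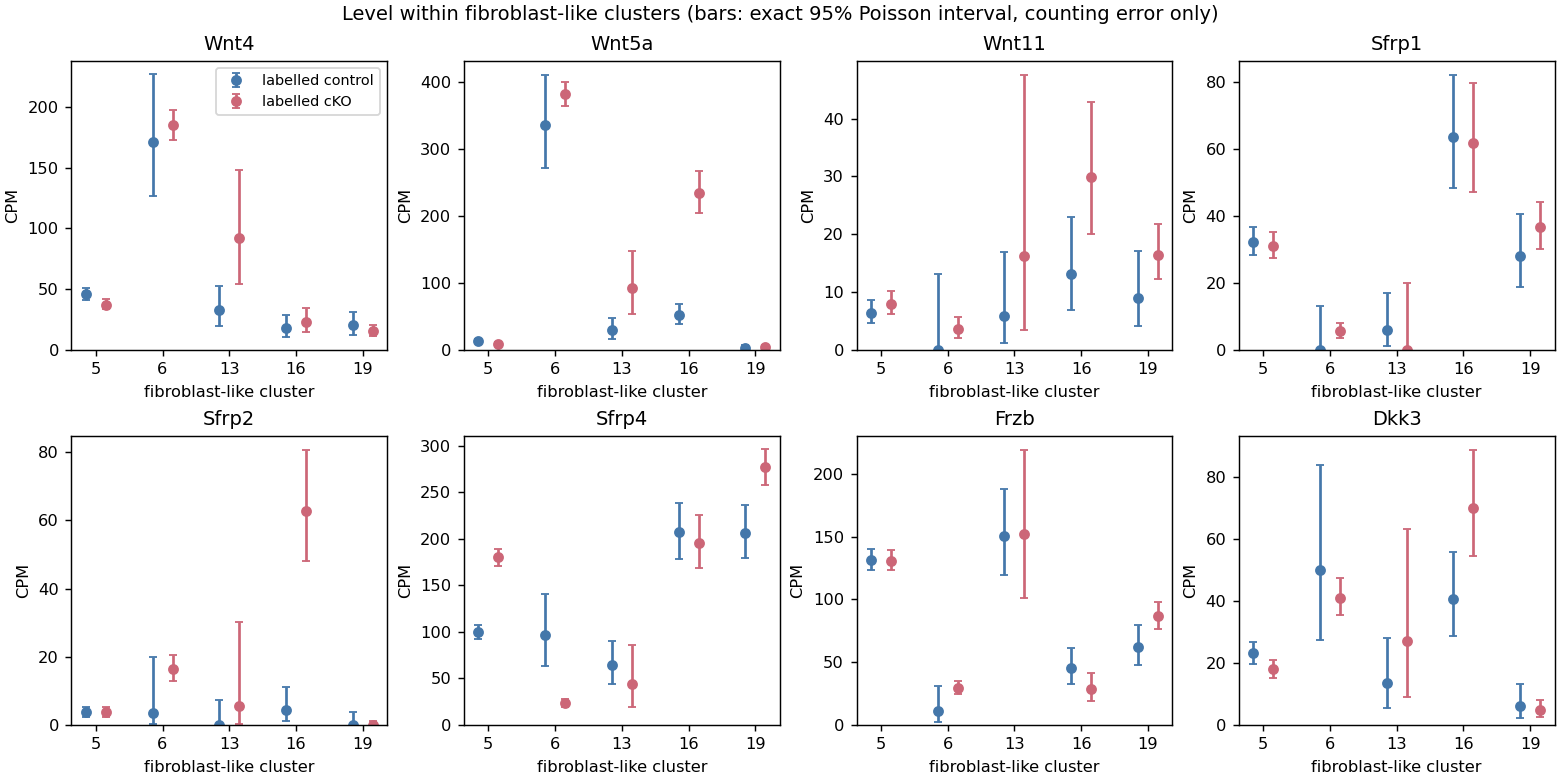
Level in CPM (vertical axis) of 8 of the genes in each fibroblast-like cluster (horizontal axis), blue for the library labelled control and red for the library labelled cKO; points are levels and bars exact 95% Poisson intervals for counting error only. Cluster 6 is highest for Wnt4 and Wnt5a in both libraries, cluster 16 carries the Sfrp2 difference (4.38 and 62.8 CPM), and Sfrp4 differs in opposite directions in clusters 5 and 6.

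Cluster 6 is led, over the other fibroblast-like clusters, by Dio2, Nrg2, Srgn and P2ry14, and its leading genes over all cells include the collagen genes Col1a1 and Col3a1. In its cKO cells Wnt4 and Wnt5a were found together: 110 of the 123 cells with a Wnt4 UMI also had a Wnt5a UMI (89.4%), against 62.7% of the cells without Wnt4. Cells with more UMIs show more genes of every kind, so this is a description of these cells. Cluster 16 is led over the other fibroblast-like clusters by Ccnb1ip1 and the heat shock genes Hspa1a and Hspa1b. At resolution 2.0 its cells were divided among groups, and these groups differed in opposite directions. In a group of 55 and 106 cells, 152 of them from cluster 16, Wnt5a stood at 66.7 and 384 CPM (3.42 to 10.5). Sfrp2 stood there at 4.44 and 110 CPM, from 1 and 65 UMIs. In another, of 117 and 289 cells with 131 from cluster 16 and most from other clusters, Wnt5a stood at 23.1 and 8.10 CPM (0.186 to 0.649). Sfrp2 stood there at 6.85 and 0.81 CPM, from 8 and 2 UMIs. The cluster 16 cells of that group were not read on their own. Another 2 genes, chosen after their values were seen, differed in the first of these groups: A2m, which encodes the protease inhibitor alpha-2-macroglobulin, at 4.44 and 342 CPM, and the chemokine gene Cxcl14 at 8.89 and 327 CPM. The 203 A2m UMIs with the cKO label lay in 15 of its 106 cells. Neither difference was particular to it: the group with 146 cells of cluster 6 had 28.5 and 405 CPM of A2m and 14.3 and 305 CPM of Cxcl14.

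Wnt5a was also higher in epithelium-like cells of the library labelled cKO, at 13.1 CPM (248 UMIs in 133 cells) and 51.9 CPM (70 UMIs in 24 cells), a ratio of 3.98 (3.01 to 5.20). Cluster 8 stood at 32.3 and 62.5 CPM (1.25 to 2.96) and cluster 17 at 16.8 and 48.0 CPM (1.75 to 4.67). The level in the library labelled cKO was near that of its empty droplets, and 35 of the 70 UMIs sat in 3 cells. Smooth muscle-like cells had 10.7 and 15.3 CPM from 10 and 32 UMIs, and the ratio interval of 0.687 to 3.27 spans 1. In macrophage or monocyte-like cells Wnt5a was the 1 of 3 measured members past 2-fold, lower in the library labelled cKO (10.8 and 2.79 CPM), where 4.2% of all 7575 genes were past 2-fold, 2.52% lower and 1.68% higher. Of its 29 UMIs in the library labelled control, 25 lay in 1 cell. The 8 positive cells of that class carried 4947 CPM of fibroblast and mesothelium markers, against 785 CPM in the other 531 cells, and had a median of 18560.5 UMIs against 6764.

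Wnt7a was an epithelial transcript in both libraries. Epithelium-like cells had 28.0 CPM (531 UMIs in 227 of 1322 cells) and 58.6 CPM (79 UMIs in 12 of 110 cells), a ratio of 2.10 (1.63 to 2.66), while the share of cells with a UMI went the other way, 17.2% and 10.9%. Of the 79 UMIs in the library labelled cKO, 60 lay in 3 cells (75.9%), and without the 3 highest cells of each library the log2 level ratio was -0.68 in place of 0.95. The 3 highest control cells held 8.66%, so leaving out 3 cells lowers the smaller library labelled cKO more. Within clusters the libraries overlapped: cluster 8 stood at 24.4 and 29.4 CPM (0.642 to 2.14) and cluster 17 at 90.1 and 87.5 CPM (0.719 to 1.30). The direction of Wnt7a between the libraries is thus not settled by these counts, and its lower level over all cells goes with a share of epithelium-like cells of 37.9% and 3.07%. Empty droplets held 14.7 and 1.09 CPM of Wnt7a, a difference in the same direction as the cell numbers.

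Among epithelium-like cells, 4 members were measured and 3 were past 2-fold, Wnt5a and Wnt11 higher and Wnt4 lower in the library labelled cKO, but 20.7% of all 8681 genes were past 2-fold in that class, 13.5% higher and 7.26% lower. Without the 3 highest cells of each gene and library only Wnt4 was past 2-fold, with Wnt5a at 0.92 and Wnt11 at 0.58. The members' median log2 level ratio was 1.21 beside 0.26 over all genes. Without those cells Wnt11 fell below 10 CPM and left the median, which was -0.68 over Wnt4, Wnt5a and Wnt7a. These 2 medians are thus over different genes. Epithelium-like cells of the library labelled cKO came mostly from cluster 8, and those of the library labelled control mostly from clusters 0 (737 and 19 cells) and 7 (246 and 1 cells). Summed smooth muscle markers stood at 61.3 and 233 CPM in this class, and the median mitochondrial share at 4.54% and 2.62%. Their part in the ratios was not tested.

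Wnt11, a ligand of the polarity branch, was low in the stroma and higher in dendritic cell-like and mesothelium-like cells. In dendritic cell-like cells its level was 19.3 CPM (33 UMIs in 22 of 151 cells) and 45.8 CPM (91 UMIs in 41 of 208 cells), a ratio of 2.37 (1.58 to 3.64). It was the 1 of 2 measured members past 2-fold in that class, where 7.85% of all 7660 genes were (3.92% higher and 3.93% lower), and under 4 of the settings tried the ratio fell short of 2-fold without a change of sign. No 3 cells carried it: the 3 highest held 30.3% and 25.3% of the UMIs. This cluster is led by Ccr7, Ccl22 and Cd83, genes of activated and migrating dendritic cells. Its 63 cells with a Wnt11 UMI had a median of 10441 UMIs against 8600.5 in the other 296 and 446 CPM of fibroblast and mesothelium markers against 183 CPM. Between the libraries the erythroid markers of this class stood at 5.27 and 1487 CPM and the plasma cell markers at 1.76 and 617 CPM, and their part in the Wnt11 difference was not tested. In empty droplets Wnt11 stood at 2.72 and 6.00 CPM, below the dendritic cell-like level in both libraries.

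In fibroblast-like cells Wnt11 stood at 7.08 and 9.59 CPM (1.02 to 1.82), with its highest level in cluster 16 at 13.1 and 29.9 CPM (1.12 to 4.89). Epithelium-like cells had 1.11 and 11.9 CPM from 21 and 16 UMIs, and 11 of the 16 lay in 3 cells. Mesothelium-like cells, at 25.7 and 33.0 CPM, had the highest or second highest Wnt11 level in either library, and their intervals overlapped those of the dendritic cell-like cells.

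**Figure D3:**
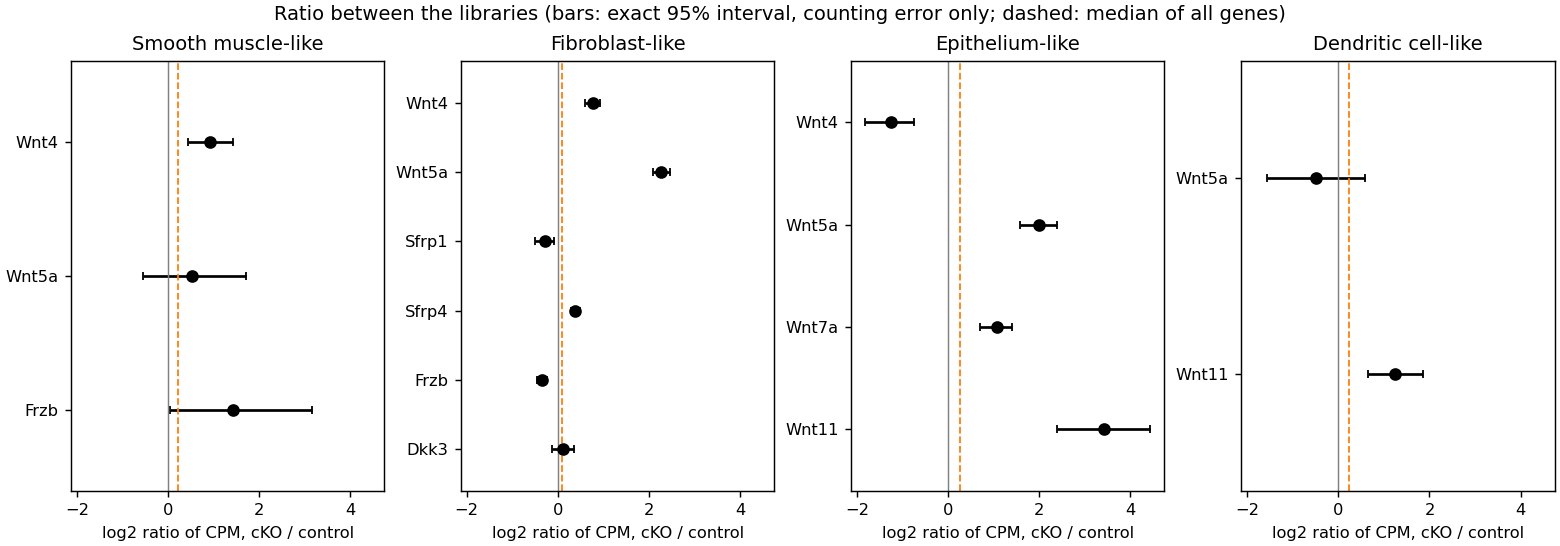
Ratio of CPM between the libraries on a log2 scale (horizontal axis) for each gene (vertical axis) with at least 10 CPM in 1 library and UMIs in both, in 4 cell classes. Points are ratios without the added 5 CPM, bars exact 95% intervals for counting error only, and the dashed line is the median log2 level ratio of all genes; Wnt4 lies above 0 in smooth muscle-like and below 0 in epithelium-like cells. Sfrp4 in smooth muscle-like cells is left out because the library labelled cKO had 0 UMIs.

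The Frizzled-related antagonists Sfrp4 and Frzb marked the fibroblasts. Sfrp4 stood at 118 CPM (1169 UMIs in 245 cells) and 154 CPM (2579 UMIs in 472 cells) in fibroblast-like cells, a ratio of 1.30 (1.21 to 1.39), short of 2-fold. That sum hides clusters that went opposite ways. Cluster 5 stood at 99.5 and 180 CPM (1.65 to 1.98), cluster 19 at 206 and 277 CPM (1.15 to 1.57), and cluster 6 at 96.3 and 22.9 CPM (0.154 to 0.377). Cluster 16 had 207 and 196 CPM, with an interval of 0.769 to 1.16 that spans 1. Cluster 19, which is led by the chemokine and inflammation genes Ccl2, Cxcl5 and Ptx3 and over other fibroblast-like clusters by the immunoglobulin genes Igkc, Igha and Jchain, had the highest Sfrp4 level of the fibroblast-like clusters in the library labelled cKO.

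Frzb was slightly lower in fibroblast-like cells of the library labelled cKO, at 114 CPM (1129 UMIs in 293 cells) and 89.8 CPM (1508 UMIs in 443 cells), a ratio of 0.786 (0.727 to 0.850). In the 2 clusters of highest Frzb the sums of the libraries were close: cluster 5 stood at 132 and 131 CPM (0.910 to 1.09) and cluster 13 at 151 and 152 CPM (0.629 to 1.57). At resolution 2.0, however, fibroblast-like groups differed in opposite directions. A group of 261 and 349 cells stood at 117 and 189 CPM (1.44 to 1.82). Another, of 138 and 93 cells, stood at 181 and 129 CPM (0.593 to 0.858). Cluster 6, with 10.7 and 29.6 CPM, had the lowest Frzb level of the fibroblast-like clusters in the library labelled control, and the log2 level ratio of the class went from -0.33 to -0.06 without it. Cluster 6 had 17 and 233 cells, and its part in the lower class level was not tested further. In smooth muscle-like cells Frzb was near the limit of detection, at 5.33 CPM (5 UMIs) and 14.3 CPM (30 UMIs in 23 cells), with a ratio of 2.68 and a wide interval of 1.03 to 8.86. Empty droplets held more, 15.5 and 26.2 CPM, in the same direction. Markers of unrelated cell types stood in smooth muscle-like cells at 2.42% and 3.57% of their level in empty droplets. The log2 level ratio of Frzb ran from 0.55 to 1.29 over 13 settings, and the part of free RNA in it was not tested. The share of smooth muscle-like cells with a Frzb UMI was 1.60% and 3.37%, or 0.639% and 1.03% thinned, and T or NK cell-like cells had 0 UMIs in both libraries.

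Sfrp4 was the 1 of 4 measured members past 2-fold in smooth muscle-like cells, where 6.06% of all 8715 genes were (3.92% higher and 2.13% lower). Its UMIs numbered 10 with the control label, all in 2 cells, and 0 with the cKO label, where the limit for a count of 0 (3 UMIs) is 1.43 CPM. The level of 10.7 CPM in the library labelled control was 7.45 times that limit, while the exact interval of the ratio reaches up to 0.200 and so allows a smaller difference. It was below the 11.6 CPM of the empty droplets, and without the 3 highest cells no UMI remained in either library. The members' median log2 level ratio in smooth muscle-like cells was 0.61, with or without Sfrp4 set at its bound, beside 0.21 over all genes. Wnt4, Wnt5a and Frzb were on the higher side there, the last 2 below the level of empty droplets in the library labelled cKO.

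Sfrp1 differed little between the libraries, at 32.4 CPM (320 UMIs in 185 cells) and 26.4 CPM (444 UMIs in 242 cells) in fibroblast-like cells, a ratio of 0.817 (0.706 to 0.946). Inside the clusters with most Sfrp1 the libraries overlapped: cluster 16 stood at 63.5 and 61.8 CPM (0.667 to 1.42), cluster 5 at 32.2 and 31.0 CPM (0.801 to 1.16) and cluster 19 at 28.0 and 36.6 CPM (0.855 to 2.05). Cluster 6 had 0 and 25 UMIs of Sfrp1, or 5.45 CPM in the library labelled cKO, and without it the log2 level ratio of the class was 0.04 in place of -0.25. Sfrp1 was also found in mesothelium-like cells, at 90.1 CPM (71.8 to 112) and 45.9 CPM (29.7 to 67.8).

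Sfrp2, another Frizzled-related antagonist, was sparse in the stroma as a whole and differed in 1 cluster. In fibroblast-like cells it stood at 3.14 CPM (31 UMIs in 17 cells) and 9.88 CPM (166 UMIs in 84 cells), a ratio of 3.15 (2.14 to 4.79), and it did not reach the minimum of 10 CPM. In cluster 16 it had 4 and 61 UMIs, or 4.38 and 62.8 CPM (5.32 to 54.3). Cluster 6 stood at 3.57 CPM (1 UMI) and 16.3 CPM (75 UMIs), while cluster 5 had 3.62 and 3.59 CPM (0.564 to 1.75). Sfrp2 and Wnt5a shared cells in cluster 16: 19 of 55 cKO cells with a Wnt5a UMI also had Sfrp2 (34.5%), against 4.96% of the cells without Wnt5a. Mesothelium-like cells had 49.3 and 75.3 CPM (0.977 to 2.38), the highest class level of Sfrp2 in both libraries.

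Dkk3 was level between the libraries in fibroblast-like cells, at 23.2 CPM (229 UMIs in 159 cells) and 24.9 CPM (419 UMIs in 249 cells), with a ratio of 1.08 (0.914 to 1.27). Cluster 16 was higher in the library labelled cKO (40.5 and 70.0 CPM, 1.14 to 2.65) and cluster 5 lower (23.0 and 17.8 CPM, 0.616 to 0.976). Its highest level lay outside the stroma. Unnamed cluster 9 (95 and 295 cells) had 105 and 125 CPM of Dkk3 (0.845 to 1.71), from 44 and 145 UMIs, and held 23.5% of all Dkk3 UMIs of the library labelled cKO. That cluster is led by Trdc, Cxcr6 and Cd163l1, with a Trdc UMI in 89.5% and a Cd3e UMI in 80.0% of its cells, genes of T cell receptor complexes and of gamma-delta T cells. Its 112 cells with Dkk3 carried 183 CPM of fibroblast and mesothelium markers, against 33.1 CPM in the 278 cells without Dkk3. A UMI of such a marker was found in 12.5% of the cells with Dkk3 and 8.63% of those without. The part of other cells' RNA in the Dkk3 of this cluster was not tested. T or NK cell-like cells had 8 and 6 Dkk3 UMIs, all in 3 cells of each library. That is 19.5 CPM (8.40 to 38.3) and 10.4 CPM (3.81 to 22.6).

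Wif1 was at or near 0 almost everywhere. None was found in the 3490 control cells, which allows up to 0.0799 CPM over all cells, and 9 were found in the 3586 cKO cells. Of these, 8 lay in 6 epithelium-like cells (5.94 CPM, 2.56 to 11.7). That level was 37.6 times the limit of 0.158 CPM that 3 UMIs set in the library labelled control. The exact interval of the ratio has a lower bound of 24.1. Cluster 8 alone, with 262 and 70 cells, had 0 and 6 UMIs, a level 7.97 times the control limit in that cluster. The 2 Wif1 UMIs of the cKO empty droplets show that some lay outside cells too.

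The wider pathway was read from lists of other Wnt genes. In smooth muscle-like cells none of the 39 listed genes measured, outside the 10 members, was past 2-fold. Most of the genes in 3 lists were on the higher side: 10 of 13 measured receptors and co-receptors (median log2 level ratio 0.29), 5 of 6 other antagonists (0.32) and 13 of 16 pathway and target genes (0.20), beside a median of 0.21 over all genes. The 1 measured other ligand stood at 0.23, and secretion genes and R-spondins went the other way (1 of 3 higher, -0.30). With the median of all genes above 0, most genes of the class were on the higher side, so the list counts are not particular to Wnt genes. Those counts depend on the scaling, since median of ratios scaling moves the median of all genes in this class by -0.22. By the rule for named genes the highest of all lists were Dvl3, a Dishevelled gene that acts below Frizzled (46.9 and 92.6 CPM, log2 level ratio 0.91), and Lgr4, a receptor for R-spondins (24.5 and 46.8 CPM, 0.81). The lowest were Rspo3, an R-spondin that strengthens Wnt signals (211 and 128 CPM, -0.70), and the cyclin gene Ccnd1 (22.4 and 14.3 CPM, -0.50, ratio interval 0.354 to 1.17).

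In fibroblast-like cells 4 of the 36 listed genes measured were past 2-fold (2.52% of all genes were, 1.64% higher and 0.88% lower), the 4 being higher in the library labelled cKO. The highest were Igfbp4, a secreted binding protein for insulin-like growth factors that can also block Wnt receptors (87.2 and 374 CPM, log2 level ratio 2.04), and the ligand gene Wnt16 (0.405 and 12.7 CPM from 4 and 214 UMIs, 1.71). The other 2, named after their values were seen, were the receptor genes Fzd2 (18.2 and 54.1 CPM, 1.35) and Ptk7 (15.8 and 36.7 CPM, 1.00). Wnt16 and Fzd2 were found in clusters of Wnt5a: of the 214 Wnt16 UMIs, 189 lay in cluster 6 and 23 in cluster 16, and Fzd2 stood at 62.4 and 238 CPM in cluster 16. Igfbp4 and Ptk7 are not given by cluster here, and the 4 genes were not read without cluster 6. The lowest were Rspo3 (35.5 and 16.3 CPM, -0.93) and the receptor gene Fzd5 (22.2 and 15.7 CPM, -0.39). Rspo3 was lower within clusters 5 and 19 as well, at 34.8 and 19.5 CPM (0.454 to 0.684) and 44.0 and 15.8 CPM (0.232 to 0.553). Axin2, the usual readout of beta-catenin signalling and named here after its values were seen, stood at 60.2 and 106 CPM (0.77). It was higher in cluster 5 (64.0 and 84.5 CPM, 1.17 to 1.49), cluster 6 (7 and 811 UMIs, ratio interval 3.42 to 17.7) and cluster 19 (7.01 and 48.3 CPM, 3.26 to 17.5). The pathway and target list as a whole did not follow Axin2. Of its 13 measured genes 8 were higher and 5 lower, 0 were past 2-fold, and their median was 0.04 beside 0.10 over all genes. Among them Myc stood at 0.04, Cd44 at -0.12 and Nkd2 at -0.33.

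**Figure D4:**
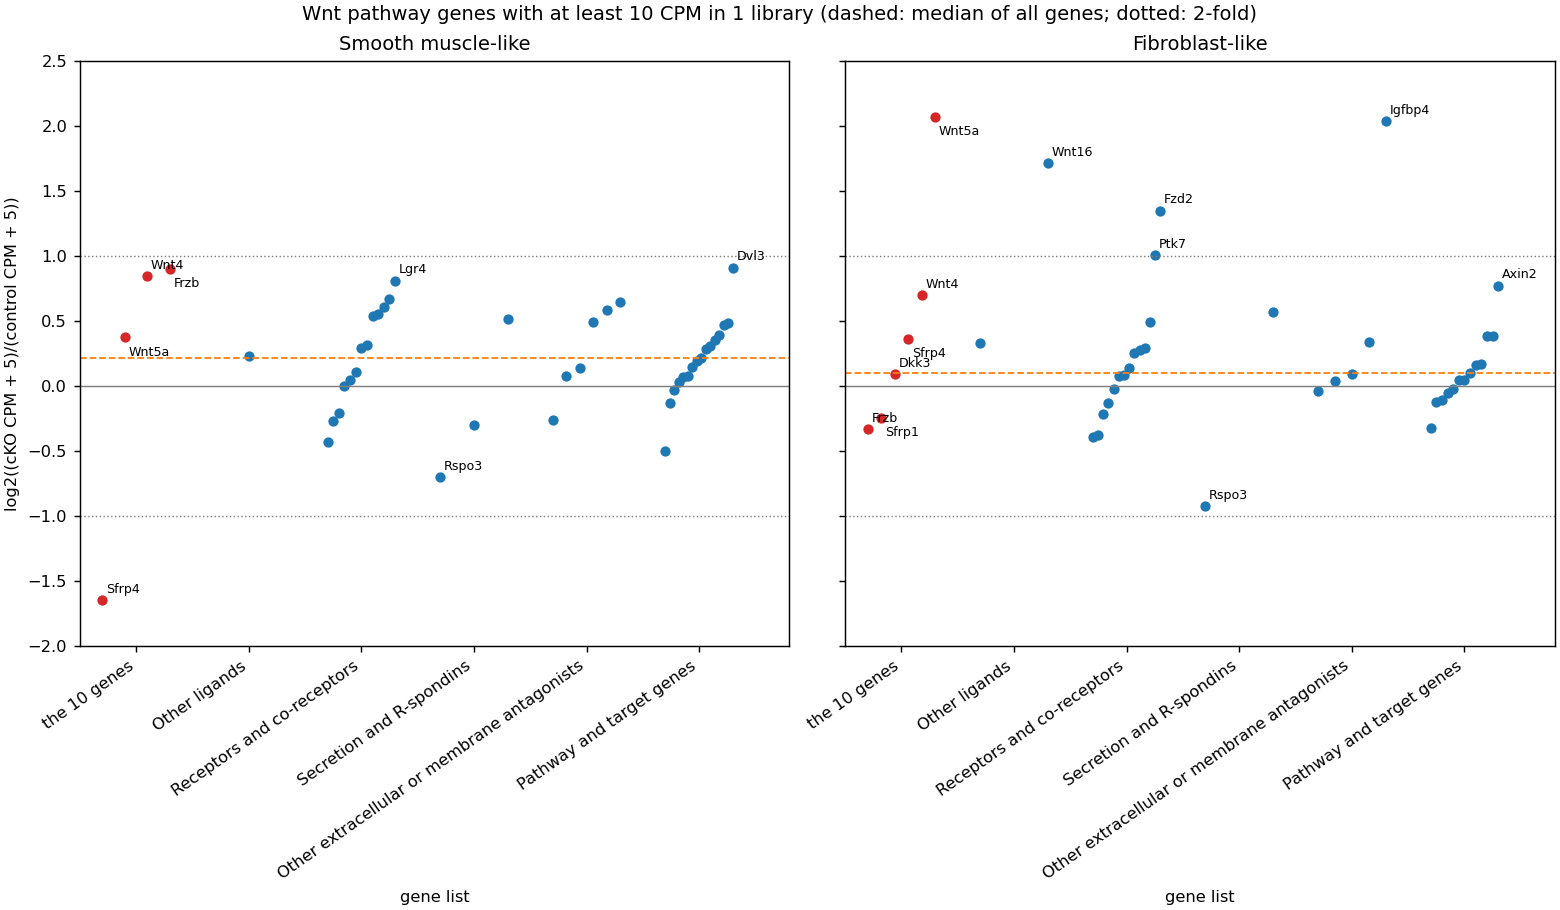
Log2 level ratio (vertical axis) of each gene with at least 10 CPM in 1 library, by list (horizontal axis), in smooth muscle-like (left) and fibroblast-like cells (right); the 10 members are red, the other lists blue, the dashed line is the median of all genes and the dotted lines mark 2-fold. Outside the members no listed gene passes 2-fold in smooth muscle-like cells, and Igfbp4, Wnt16, Fzd2 and Ptk7 do so in fibroblast-like cells.

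Genes with a pattern like each member were read across the 20 clusters, with the libraries weighted equally, for the 7 members with at least 500 UMIs. These are correlations of log2(CPM + 1) over clusters that share libraries and differ in depth, given as descriptions. Wnt7a was matched most closely by Gm20442, Urah and Fermt1 (Pearson r 0.98 each), and Fermt1 encodes the epithelial adhesion protein kindlin-1. Frzb was matched by Shc2, Nog and Eln (0.96 each), of which Nog encodes the BMP antagonist noggin and Eln elastin. For Sfrp4 they were Dpt (0.94), Gdnf (0.94) and Cilp (0.92), and Dpt, a fibroblast marker, encodes dermatopontin. Sfrp1 was nearest to Pla2r1 (0.92), Npr1 and Gabra3 (0.87 each). The matches were looser for Wnt4 with Cttn and 6430548M08Rik (0.88 each) and Pmm1 (0.87), for Wnt5a with Mageh1 (0.86), Zfp618 (0.85) and Cxcl14 (0.83), and for Dkk3 with Pofut1 (0.84), Ramp1 (0.82) and Acap3 (0.79). Among the members, Sfrp4 and Frzb were the closest pair at 0.86, and Wnt4 and Wnt5a stood at 0.55.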

How the data were processed

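The deposited files are raw UMI counts per gene and barcode, not filtered for cells, that the authors made with Cell Ranger. The file headers give Cell Ranger 4 and the submitters' processing notes give Cell Ranger 6.1.1, with mm10 as the genome. Of the 32285 gene identifiers, 32158 (99.6%) are in GENCODE vM21. Per the labels' protocols, each uterus pool was digested with collagenase for 5 hours before 3′ droplet capture. The members and gene lists were chosen with earlier results of these data known.

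Counts of each cell were scaled to 10000 and log transformed, and 2000 variable genes, leaving out the members and the other Wnt genes, gave 30 principal components, 15 neighbours and Leiden clusters at resolution 1.0 (scanpy 1.11.5, igraph 0.11.9, Python 3.11.15). A cluster was named when at least 3 markers of a class had a UMI in at least 25% of its cells and a level of at least 2 times their median CPM over clusters. Its leading genes and depth also had to not go against the name. Names rebuilt in this way may differ from the authors'. Doublet scoring marked 4 of 7076 cells (0.0565%), which is too few for the caller to have worked. No doublet was therefore removed in the values reported, and the 200 cells with the highest scores were left out as an alternative.

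UMIs were summed per class and library. Intervals are exact Poisson for levels and exact conditional (binomial) for ratios, at 95%, and a count of 0 is read against 3 UMIs. Empty droplets are barcodes with at most 100 UMIs. The free RNA share of a class was estimated as the level of unrelated cell types' markers over their level in empty droplets. The lowest such share among the compared classes, 1.73% and 3.57%, was subtracted in every class. Thinned values draw 1000 UMIs from every cell. Named genes were all 10 members and Prickle1, the 2 highest and 2 lowest of the Wnt lists with at least 10 CPM in smooth muscle-like and in fibroblast-like cells, and the 3 genes most like each member with at least 500 UMIs. The class sums were checked on simulated data.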

Additional observations from a re-analysis of the deposited data

Results flagged for a closer look

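A few members differed in opposite directions in a pair of cell classes, and with 1 library per group none of these differences was tested. Wnt4 had a log2 level ratio of 0.85 in smooth muscle-like and -1.10 in epithelium-like cells, a gap of 1.95. Wnt5a stood at 2.07 in fibroblast-like cells and at -1.02 among macrophage or monocyte-like cells, a gap of 3.09, and 25 of the 29 control UMIs of the second class lay in 1 cell. Sfrp4 stood at 0.36 in fibroblast-like and -1.65 in smooth muscle-like cells, a gap of 2.01, the second from 10 UMIs in 2 cells. Frzb stood at 0.90 in smooth muscle-like and -0.33 in fibroblast-like cells, a gap of 1.23, with 5 and 30 UMIs in the smooth muscle-like cells, where its level was below that of empty droplets in both libraries.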

How the results depend on the processing

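No paired analysis was possible because each group has 1 library. Across 13 settings, 11 of 19 pairs of a member and a class kept the sign of the log2 level ratio, among them Wnt4 in smooth muscle-like cells (0.59 to 0.97), Wnt4 in epithelium-like cells (-1.74 to -0.39), Wnt5a in fibroblast-like cells (0.55 to 2.22) and Wnt11 in dendritic cell-like cells (0.86 to 1.90). Leaving out the 3 cells with most UMIs of a gene was chosen after seeing the data. In epithelium-like cells the members' median of 1.21 became 1.05 with median of ratios scaling, 0.58 thinned, 0.55 without clusters mostly from 1 library, 0.58 as a mean within clusters and -0.68 without the 3 highest cells. Each median is over the members with at least 10 CPM under that setting, and Wnt11 was not among them in the last. Wnt7a there turned to -0.37 thinned and -0.68 without the 3 highest cells, which also took the number of members past 2-fold from 3 to 1. In fibroblast-like cells the median of 0.23 became -0.12 thinned and 0.037 without cluster 6. The number past 2-fold went from 1 to 0 without cluster 6 and within clusters, and without cluster 6 Wnt4 turned to -0.29 and Sfrp1 to 0.037. In dendritic cell-like cells the number went from 1 to 0 at 2000 UMIs, at resolutions 0.5 and 2.0, and with median of ratios scaling. In macrophage or monocyte-like cells it went from 1 to 0 at 2000 UMIs, at resolution 0.5, with high doublet scores removed and without the 3 highest cells, and to 2 thinned; Frzb turned to -0.30 at 2000 UMIs and -1.19 thinned, and Wnt5a to 0.60 with high doublet scores removed and 0.29 without the 3 highest cells. In smooth muscle-like cells it went from 1 to 0 with at most 10% mitochondrial UMIs and thinned, and to 2 with 1 CPM added and within clusters. After thinning, the number of members found in a higher share of cKO cells went from 5 to 3 in epithelium-like and from 8 to 3 in smooth muscle-like cells. Median of ratios scaling moved the median of all genes by -0.22 for dendritic cell-like cells, -0.20 for the epithelium, -0.22 for smooth muscle and -0.10 for fibroblasts. The cause of these shifts was not tested. Members with under about 30 UMIs in a class rest on few cells and their direction is not settled at this depth.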
